A study of Mus musculus and blank sample with 191 samples.

Results

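The endothelial and angiogenic genes described here were 10 genes chosen by symbol: Pecam1, Cdh5, Kdr, Flt1, Tek, Emcn, Eng, Vwf, Vegfa and Angpt2. All 10 were found among the 19962 targets of the count table, and all 10 passed the submitters' detection filter, which left 14881 genes. The study profiled regions of mouse uterus with the GeoMx Digital Spatial Profiler, which releases barcodes from hybridised RNA probes in a chosen area of a tissue section and counts them by sequencing. The mutant mice carried 1 knock-in allele of Thra1 with the PV mutation (PV/N, written Thra1PV/+ and here PV), a frameshift in the C-terminal end of thyroid hormone receptor alpha 1 that makes it a dominant-negative receptor in every cell that uses the gene, and the controls were wild-type mice (N/N, here WT). Regions were labelled epithelium or stroma. The study took regions of mucosa, glands and stroma, and the labels do not tell mucosa from glands. It also reports fewer glands and a stratified squamous lining in the mutant uterus. The make-up of the epithelium regions may therefore differ by genotype, which was not tested. Of the 189 regions, the 95 of the first plate were summed per mouse and compartment. This gave 6 PV mice aged 2.4 to 6.3 months (median 4.1) and 8 WT mice aged 4.0 to 9.0 months (median 5.85). The labels gave ages as bare numbers, which were taken here to be months. Stroma of the first plate was held by 6 PV and 7 WT mice, so that 13 mice had both compartments. All mice were untreated and were sampled as cores of fixed endometrium. A pathologist chose regions by shape and by staining for pancytokeratin and smooth muscle actin. The study's general animal methods describe matching at metestrus, without naming the mice of the spatial assay. The PV mutation was in the germline, so genotype effects of the vessels and of other tissues cannot be told apart.

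Blood vessels are lined by endothelial cells, which hold together through junction proteins, take up growth signals from the surrounding tissue and carry a coat towards the blood. Vascular endothelial growth factor A is made by many cell types, often under low oxygen, and acts on endothelial receptors, while angiopoietins act on the receptor Tie2 to steady or loosen vessels. In the uterus vessels grow and regress with each cycle, capillaries run in the stroma beneath the epithelium, and the epithelium itself holds no vessels. Pecam1 and Cdh5 encode the junction proteins CD31 and VE-cadherin. Emcn encodes the sialomucin endomucin of capillaries and veins, and Vwf the clotting protein von Willebrand factor, stored in endothelial cells and platelets. Kdr and Flt1 encode the VEGF receptors VEGFR2, the main signalling receptor, and VEGFR1, which also has a soluble decoy form. Tek encodes Tie2, Angpt2 its context-dependent ligand angiopoietin 2, Eng the TGF-beta co-receptor endoglin, and Vegfa the growth factor itself.

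Promoters are shown for Kdr, Flt1 and Emcn, endothelial genes that were higher in stroma than in epithelium, and for Vegfa, which did not pass the test in either direction. Those of Tek and Eng, which were also higher in stroma, are not printed. RefSeq (GRCm38.p6) gave a promoter for 6 of the 10 genes, namely Kdr, Flt1, Tek, Emcn, Eng and Vegfa. The 250 bases before the transcription start are printed 5′ to 3′ on the strand of the gene, and capitals mark CNGGAAG, the core bound by ETS factors, and GGGCGG, the core bound by SP1, each on either strand (read from the other strand they spell CTTCCNG and CCGCCC). The stretches are chr5:75978456-75978705 for Kdr and chr5:147726012-147726261 for Flt1, both on the minus strand, chr3:137340828-137341077 on the plus strand for Emcn, and chr17:46032378-46032627 on the minus strand for Vegfa.
Kdr: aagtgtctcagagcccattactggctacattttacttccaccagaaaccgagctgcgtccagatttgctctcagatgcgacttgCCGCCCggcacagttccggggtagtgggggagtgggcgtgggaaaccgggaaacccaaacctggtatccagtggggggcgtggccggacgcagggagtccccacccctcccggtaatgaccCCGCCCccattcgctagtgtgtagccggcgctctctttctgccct
Flt1: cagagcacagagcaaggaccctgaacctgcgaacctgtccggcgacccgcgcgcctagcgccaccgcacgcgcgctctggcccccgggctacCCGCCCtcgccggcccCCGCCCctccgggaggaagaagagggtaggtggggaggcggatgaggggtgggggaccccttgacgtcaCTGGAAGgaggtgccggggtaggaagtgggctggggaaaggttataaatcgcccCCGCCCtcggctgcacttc
Emcn: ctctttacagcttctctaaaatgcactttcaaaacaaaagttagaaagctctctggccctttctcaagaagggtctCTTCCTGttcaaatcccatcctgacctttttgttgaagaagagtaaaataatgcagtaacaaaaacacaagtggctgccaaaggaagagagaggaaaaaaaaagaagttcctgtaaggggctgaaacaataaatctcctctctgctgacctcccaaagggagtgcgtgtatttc
Vegfa: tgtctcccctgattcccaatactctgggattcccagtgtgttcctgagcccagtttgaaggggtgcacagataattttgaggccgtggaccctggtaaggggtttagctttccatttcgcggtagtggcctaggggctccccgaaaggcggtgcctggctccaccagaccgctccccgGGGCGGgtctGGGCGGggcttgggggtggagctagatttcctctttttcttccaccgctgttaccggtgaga
CNGGAAG stood in 2 of the 5 endothelial genes with a promoter, 73 to 67 bases before the start of Flt1 on its own strand and 174 to 168 bases before that of Emcn on the opposite strand. The search covered windows from 250 bases before to 50 bases after the start, for these genes and for all promoters, and every match in these genes lay in the 250 bases before it. Over such windows 31.9% of 32851 RefSeq promoters held the core. GGGCGG stood 2 times in the Kdr promoter, 3 times in that of Flt1 and 2 times in that of Vegfa, 72 to 67 and 62 to 57 bases before the start, against 35.7% of all promoters with at least 1 match. The hypoxia response core was searched in 2 forms on both strands. Its form GCGTG occurred 2 times in Kdr and 1 time each in Flt1 and Emcn, and 32.4% of promoters held it. Its other form, spelled ACGTG, was in none of the windows shown and in 19.6% of promoters. Vegfa has another RefSeq promoter, not printed here (chr17:46025164-46025413, minus strand), which held ACGTG 1 time, GCGTG 1 time and GGGCGG 1 time. Tek and Eng held none of these cores. The marked matches did not overlap one another, and a match is a description of the letters and not of binding.

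A first-plate region held 61691 to 3130400 counts. All 60 regions labelled epithelium had a score above 0 for columnar epithelium minus fibroblast genes (0.07 to 3.41, mean log2 values) and all 35 labelled stroma had one below 0 (-6.42 to -2.58). On the second plate 30 of 57 epithelium regions and 12 of 37 stroma regions lay on the side of the other label, and that plate entered an alternative only. PV2 had 1 shallow region per compartment, with 61691 counts in epithelium and 85336 in stroma. Its epithelium had 0 probe counts for Pecam1, Kdr, Flt1, Emcn and Angpt2, which the deposited table gives as 1, and its level of 3.99 log2 CPM for each of them is set by that floor and by the prior count of 2. Results are also given without PV2 where it decides a value. Whether the probe for Thra separates the mutant from the normal allele is not known, as probe sequences were not used here. Thra differed by 0.62 ± 0.28 (SE, log2) in epithelium and 0.99 ± 0.28 in stroma between PV and WT mice, without passing the test (edgeR adjusted p = 0.593 and 0.959).

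Stroma and epithelium of the same 13 mice were compared first. Of the 10 genes, 9 were higher in stroma, from 2.06-fold for Angpt2 to 5.61-fold for Eng, and Vegfa was not called in either direction. The test was edgeR's quasi-likelihood test with the mouse as a block and Benjamini-Hochberg adjustment over all genes, and a gene was called at an adjusted p under 0.05. In this comparison 63% of all genes were called and 34.6% were called higher in stroma. The median change was 1.89 on the log2 scale over the 10 genes and 0.05 over all genes tested. Differences between the compartments in bulk regions cannot tell fewer endothelial cells from less RNA per cell. The same 9 genes were called when each mouse was left out in turn.

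**Figure D1:**
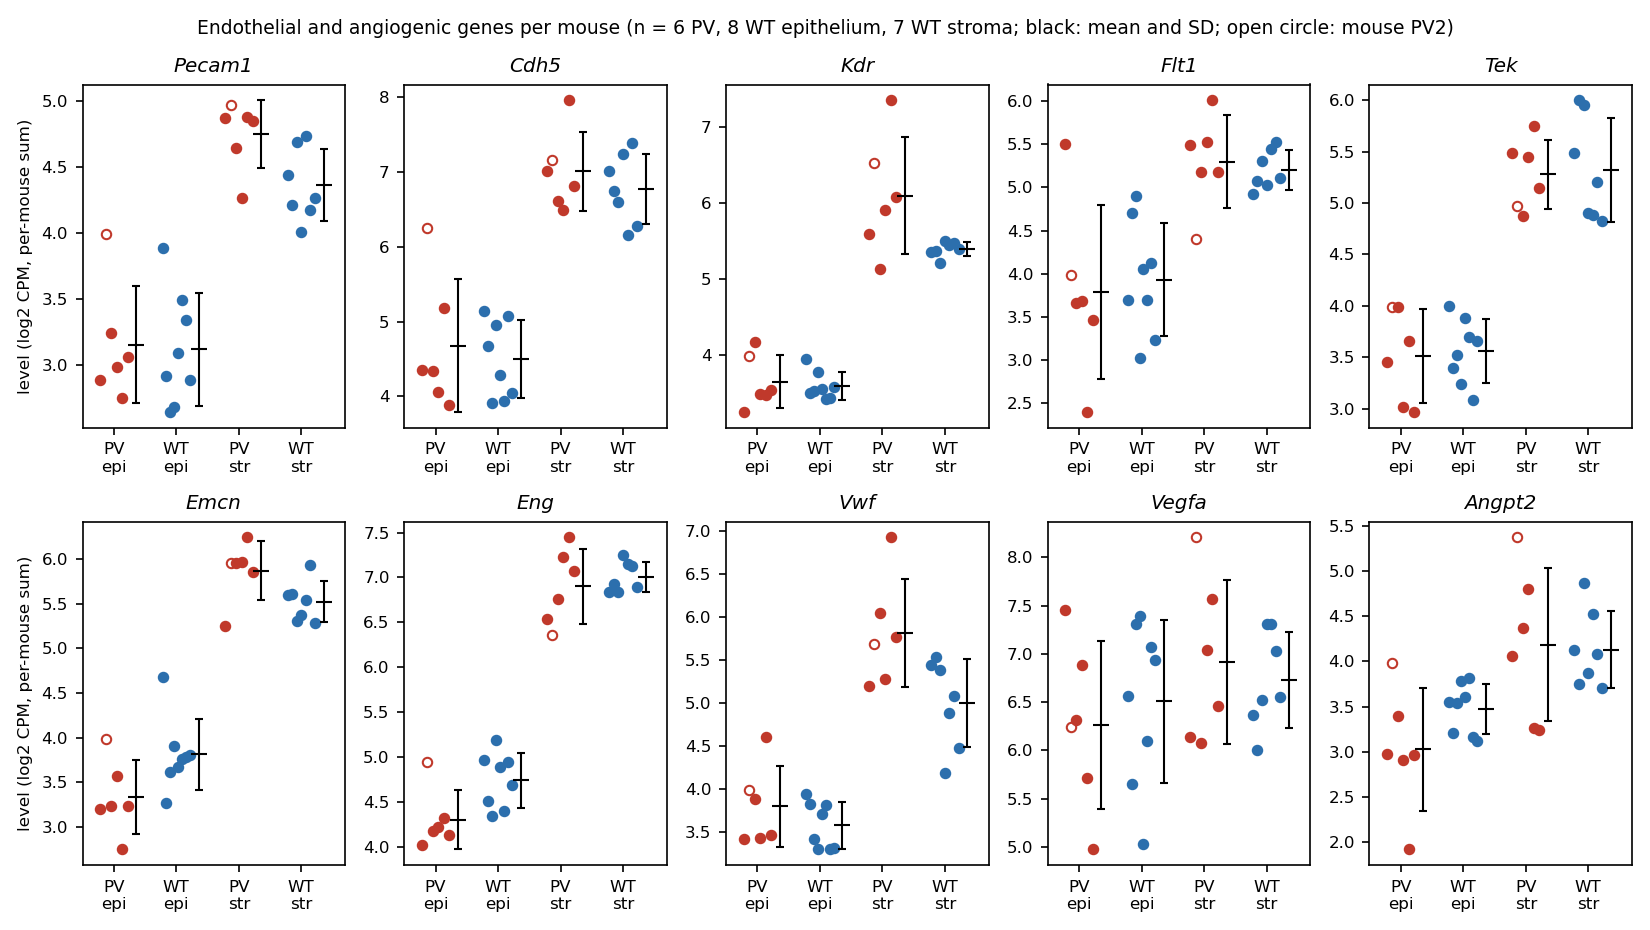
Level of each gene (log2 CPM of the summed counts, y axis) in PV epithelium, WT epithelium, PV stroma and WT stroma, 1 point per mouse, with the mean and SD in black and mouse PV2 as open circles. For Pecam1, Kdr, Tek, Emcn and Eng all stroma points lie above all epithelium points, for Cdh5, Flt1, Vwf and Angpt2 the highest epithelium points reach the lowest stroma points, and for Vegfa the 4 groups overlap.

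The junction gene Pecam1 was low in epithelium, where it ran from 2.75 to 3.99 log2 CPM in PV mice (median 3.02) and from 2.64 to 3.89 in WT mice (median 3.00). In stroma it ran from 4.27 to 4.97 (median 4.86) in PV mice and from 4.01 to 4.73 (median 4.26) in WT mice. Every stroma sum thus lay above every epithelium sum. The epithelium level was 1.28 times the negative-probe level in the median PV mouse and 1.25 times in the median WT mouse, close to the background of the assay. Pecam1 was 2.98-fold higher in stroma (1.58 ± 0.14 on the log2 scale, adjusted p = 1.84e-08), and in 13 of 13 mice. With the negative-probe level subtracted before summing, the log2 difference was 2.82.

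Cdh5, the other junction gene, ran from 3.89 to 6.25 (median 4.35) in PV epithelium and from 3.92 to 5.15 (median 4.49) in WT epithelium. Its stroma levels were 6.49 to 7.96 (median 6.91) in PV mice and 6.16 to 7.38 (median 6.74) in WT mice. The compartments overlapped through 1 value, the 6.25 of PV2, which rested on 5 counts, and without PV2 the highest PV epithelium level was 5.18. Cdh5 was 5.23-fold higher in stroma (2.39 ± 0.12, adjusted p = 4.25e-12) and higher there in all 13 mice, by 0.91 in PV2 and by at least 1.87 in the WT mice. In stroma it stood at a median of 17.3 times the negative-probe level in PV and 16.0 times in WT mice.

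Emcn, the endomucin gene, ran from 2.75 to 3.99 (median 3.24) in PV epithelium and from 3.27 to 4.68 (median 3.77) in WT epithelium. In stroma its levels were 5.25 to 6.24 (median 5.95) and 5.29 to 5.93 (median 5.54). No stroma sum reached down to the epithelium sums, and the highest epithelium sum was that of WT1. The stroma was 4.22-fold higher (2.08 ± 0.16, adjusted p = 1.46e-09). Vwf, the clotting protein gene, lay at 3.42 to 4.61 (median 3.68) in PV epithelium, 3.30 to 3.94 (median 3.57) in WT epithelium, 5.20 to 6.93 (median 5.73) in PV stroma and 4.19 to 5.53 (median 5.09) in WT stroma. The lowest WT stroma sum, that of WT4, was below the highest PV epithelium sum, that of PV5. Within mice Vwf was higher in stroma in 13 of 13, and 3.50-fold over all (1.81 ± 0.12, adjusted p = 3.51e-10). Platelets also hold von Willebrand factor, and 3 of 3 measured platelet genes were called higher in stroma too, led by Itgb3 (1.64 ± 0.15, adjusted p = 1.56e-08); their part in the Vwf difference was not tested.

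The VEGF receptors differed in how evenly they followed the compartments. Kdr ran from 3.25 to 4.18 (median 3.51) in PV epithelium and from 3.41 to 3.94 (median 3.54) in WT epithelium. In stroma it ran from 5.13 to 7.35 (median 5.99) in PV mice and from 5.21 to 5.50 (median 5.40) in WT mice, the narrowest range of any gene in a group here (SD 0.10). Every mouse had more Kdr in stroma, by 0.95 in PV3 and by 3.87 in PV5, and the fitted difference was 4.38-fold (2.13 ± 0.16, adjusted p = 1.34e-09). Flt1 ranged more widely in epithelium, from 2.39 to 5.51 (median 3.68) in PV mice and from 3.03 to 4.90 (median 3.87) in WT mice. Its stroma levels were 4.40 to 6.01 (median 5.34) and 4.92 to 5.53 (median 5.11). The epithelium of PV1 held the highest Flt1 level of any epithelium sum, and PV1 was the only mouse without more Flt1 in stroma (stroma minus epithelium -0.02). Flt1 was higher in stroma in 12 of 13 mice and 2.47-fold over all (1.31 ± 0.21, adjusted p = 3.07e-05).

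Tek, the angiopoietin receptor, ran from 2.97 to 3.99 (median 3.55) in PV epithelium and from 3.08 to 4.00 (median 3.59) in WT epithelium, and from 4.87 to 5.74 (median 5.30) and from 4.83 to 6.00 (median 5.20) in stroma. Each stroma sum lay above all epithelium sums, and the difference was 3.91-fold (1.97 ± 0.16, adjusted p = 2.95e-09). Angpt2, a ligand of that receptor, was closer between the compartments. It ran from 1.92 to 3.99 (median 2.97) in PV epithelium, from 3.12 to 3.82 (median 3.55) in WT epithelium, from 3.24 to 5.37 (median 4.22) in PV stroma and from 3.71 to 4.87 (median 4.08) in WT stroma, with overlap of the compartments. It was higher in stroma in 13 of 13 mice, by 0.09 in WT4 and by 1.89 in PV4, and 2.06-fold over all (1.04 ± 0.15, adjusted p = 5.62e-06). In epithelium only 4 of 31 PV regions and 7 of 29 WT regions had Angpt2 above 2 times the negative probe.

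Eng, the TGF-beta co-receptor gene, had the largest fold of the 10 genes. It ran from 4.01 to 4.95 (median 4.20) in PV epithelium and from 4.34 to 5.19 (median 4.79) in WT epithelium, against 6.36 to 7.45 (median 6.92) and 6.83 to 7.25 (median 6.93) in stroma. The compartments were fully apart, and the stroma was 5.61-fold higher (2.49 ± 0.11, adjusted p = 2.95e-12). Across the list, 8 genes were higher in stroma in every mouse, which held for 9.99% of all genes. All stroma sums lay above all epithelium sums for 5 genes (Pecam1, Kdr, Tek, Emcn and Eng), against 2.82% of all genes. Without PV2, an alternative chosen after seeing the data, Cdh5 joined them, which made 6 genes against 4.03%.

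**Figure D2:**
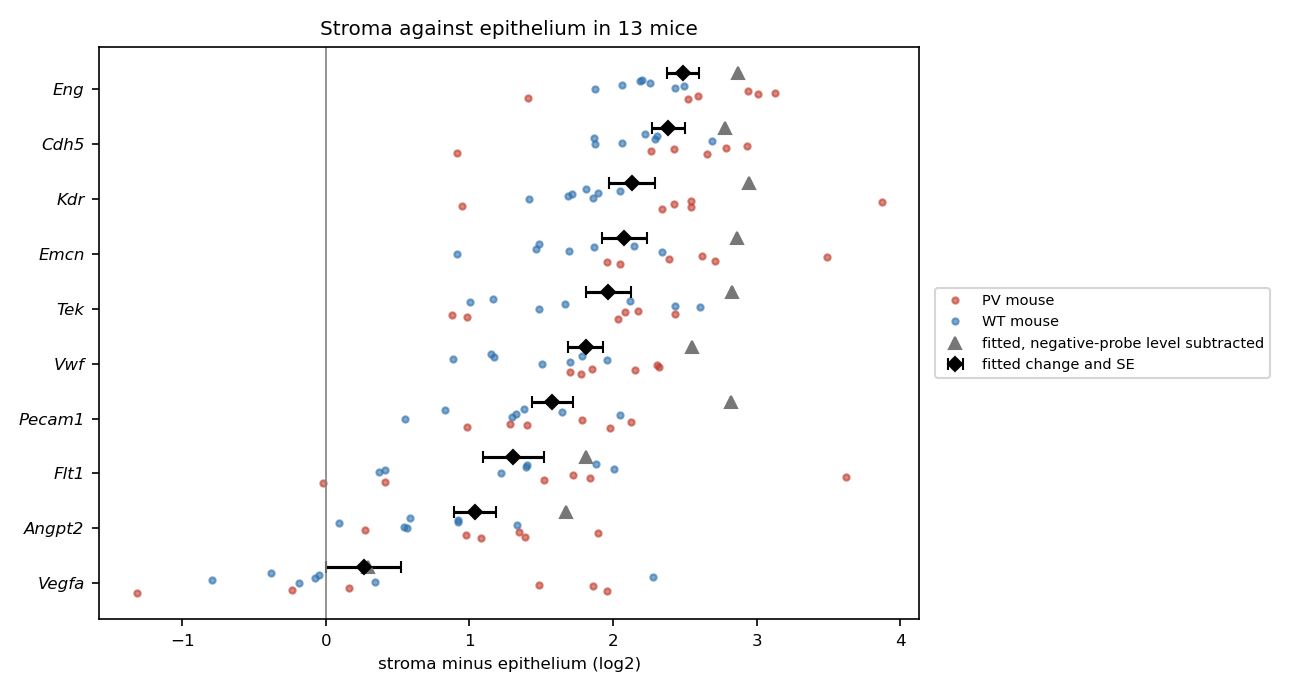
Stroma minus epithelium (log2, x axis) for each gene, with 1 coloured point per mouse (6 PV, 7 WT), the fitted change and its SE as black diamonds and the fitted change after subtracting the negative-probe level as grey triangles. The diamonds run from 0.26 for Vegfa to 2.49 for Eng, and the triangles lie to the right of the diamonds, furthest for Pecam1 (1.58 against 2.82).

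The epithelium held a part of the stroma level of each endothelial gene. The median over 13 mice was 18.0% for Eng, 19.9% for Cdh5, 22.5% for Emcn, 22.9% for Tek, 25.5% for Kdr, 27.5% for Vwf, 35.7% for Pecam1 and 36.7% for Flt1. Among fibroblast genes, Dcn, which encodes the matrix proteoglycan decorin, stood at 10.2%, Col1a1 at 12.4% and Lum at 17.9%. The share of Lum was thus close to the 18.0% of Eng. The smallest Flt1 share was 6.93% and the largest 101%, the latter in PV1. Of these genes Pecam1, with one of the higher shares, was nearest to the negative probe in epithelium, and the part of probe background and of stroma signal in the shares was not tested.

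Vegfa was the exception among the 10 genes. It ran from 4.97 to 7.46 (median 6.28) in PV epithelium, from 5.03 to 7.39 (median 6.75) in WT epithelium, from 6.08 to 8.21 (median 6.75) in PV stroma and from 6.00 to 7.31 (median 6.56) in WT stroma. The 4 groups overlapped, and all 31 PV and 29 WT epithelium regions and all 21 PV and 14 WT stroma regions were above 2 times the negative probe. Stroma exceeded epithelium in 6 of 13 mice. The difference ran from -1.32 in PV1 to 2.28 in WT5, and the fitted value was 0.26 ± 0.26 with an interval of -0.25 to 0.78 (adjusted p = 0.394). This does not show equal levels in the compartments. When limma was run on the average over regions of log2 Q3 values (counts divided by the third-quartile factor of each region), Vegfa was called at 0.60 (adjusted p = 0.0429), and with regions taken as independent its sign turned (-0.048, adjusted p = 0.822).

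Other genes of the same pathways were counted by lists. Of 29 other endothelial genes tested, 26 were called higher in stroma and 2 lower, with a median of 1.47. The lowest p-values were those of Fli1 (2.08 ± 0.12), an ETS factor, Cd34 (3.32 ± 0.20), a surface sialomucin that stromal fibroblasts also carry, and Egfl7 (2.41 ± 0.14), a secreted endothelial protein. The exceptions were Sox17 (-2.75 ± 0.17) and Sox7 (-1.59 ± 0.18), related transcription factors, of which Sox17 is also made by uterine epithelium. All 7 other VEGF family genes (ligands, co-receptors and the receptor gene Flt4) were higher in stroma, by a median of 1.20. Among them were the neuropilins Nrp1 (2.01 ± 0.15) and Nrp2 (1.65 ± 0.17) and the lymphatic growth factor Vegfc (1.20 ± 0.16). All 5 partners of the angiopoietins were higher there too (median 1.68), led by Svep1 (2.34 ± 0.15), a large matrix protein, Ptprb (1.68 ± 0.14), the phosphatase of Tie2, and Tie1 (1.69 ± 0.18), its companion receptor. Against the 34.6% of all genes called higher in stroma, these lists held 26 of 29, 7 of 7 and 5 of 5. The counts are not independent, since Tie1 and Ptprb stood in both the endothelial and the angiopoietin list. Aplnr was also in the apelin list below, and Flt4 also in the lymphatic list.

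Lists that epithelial cells share were more mixed. Of 9 vascular Notch genes, 6 were higher in stroma and 2 lower, Notch1 (-0.73 ± 0.13) and its ligand Jag1 (-0.69 ± 0.20). Among 11 genes of endothelial BMP and TGF-beta signalling, 7 were higher, led by the receptors Tgfbr2 (1.54 ± 0.12) and Acvrl1 (1.27 ± 0.11), and the inhibitory Smads Smad7 (-0.61 ± 0.15) and Smad6 (-0.39 ± 0.13) were lower. The hypoxia response genes, which Vegfa belongs with by its control under low oxygen, had 4 of 13 higher, 4 lower and a median of -0.12, beside the 34.6% of all genes called higher and 4229 of 14881 called lower. Adm, the vasodilator adrenomedullin, was higher in stroma (1.05 ± 0.21), and the oxygen-sensing prolyl hydroxylases Egln1 (-1.59 ± 0.14) and Egln3 (-1.68 ± 0.37) were higher in epithelium. The median region held 331 Q3 units of Egln3 in PV1 epithelium, 12.8 in other PV epithelium, 10.0 in WT epithelium and 10.3 in stroma. Of 9 angiogenesis inhibitors, 7 were higher in stroma, led by Col18a1 (2.70 ± 0.13), the precursor of endostatin, and the semaphorins Sema3f (-2.23 ± 0.17) and Sema3a (-0.72 ± 0.18) were lower. All 5 apelin and chemokine genes were higher, led by Cxcl12 (2.79 ± 0.17), as were 4 of 6 genes of leukocyte adhesion on venules, led by Ackr1 (1.52 ± 0.13), with Cd99l2 lower (-0.58 ± 0.10).

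Genes listed for cells that lie beside vessels were measured too. All 9 genes of the pericyte list were higher in stroma (median 1.64), led by Rgs5 (2.74 ± 0.15), Pdgfrb (2.60 ± 0.15) and Mcam (2.11 ± 0.14). Mcam and Pdgfb of that list are not particular to pericytes. The 3 lymphatic genes measured of 6 were higher by 0.74 to 0.99. Fibroblast genes were higher in 9 of 10 (median 2.81), macrophage genes in 8 of 9 (median 2.41) and smooth muscle genes in 7 of 7 (median 1.46), and all 12 columnar epithelium genes were lower (median -3.86). The compartment difference of the endothelial genes was therefore one of many between these tissues.

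Variation between regions of the same mouse was then described, as deviations of log2 Q3 values from the mean of the mouse, over 32 stroma regions of 10 mice and 59 epithelium regions of 13 mice. Regions of a mouse share tissue, section and library preparation, so these correlations carry no test. In stroma 27 of the 28 pairs among the 8 endothelial genes (all but Vegfa and Angpt2) were positive, with r from -0.11 to 0.81 and a median of 0.39. In epithelium 20 of 28 were positive, with r from -0.37 to 0.51 and a median of 0.14. Vegfa had a median r of -0.11 with the 8 genes in stroma and -0.01 in epithelium, and Angpt2 one of 0.07 and -0.04. The epithelium value of Vegfa pooled unlike mice. In the 15 regions of PV1, looked at after its values were seen, it ran from -0.56 for Kdr to 0.91 for Flt1, the only positive one. Over the 44 regions without PV1 it ran from -0.13 for Pecam1 to 0.40 for Eng, and only Pecam1 and Flt1 were negative. Of the 8 negative pairs in epithelium, 7 were those of Flt1 with each other endothelial gene and the last was Tek with Eng. Stroma regions rich in one endothelial gene thus tended to be rich in the others. PV5 had 2 stroma regions, and 1 of them was lower than the other in all 8 genes. It held 36.1 against 199 Q3 units of Cdh5, 4.51 against 53.2 of Flt1 and 49.6 against 129 of Eng. How far the stroma r values rest on PV5 was not tested. Angpt2 had its highest r with its receptor gene Tek in stroma (0.51).

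**Figure D3:**
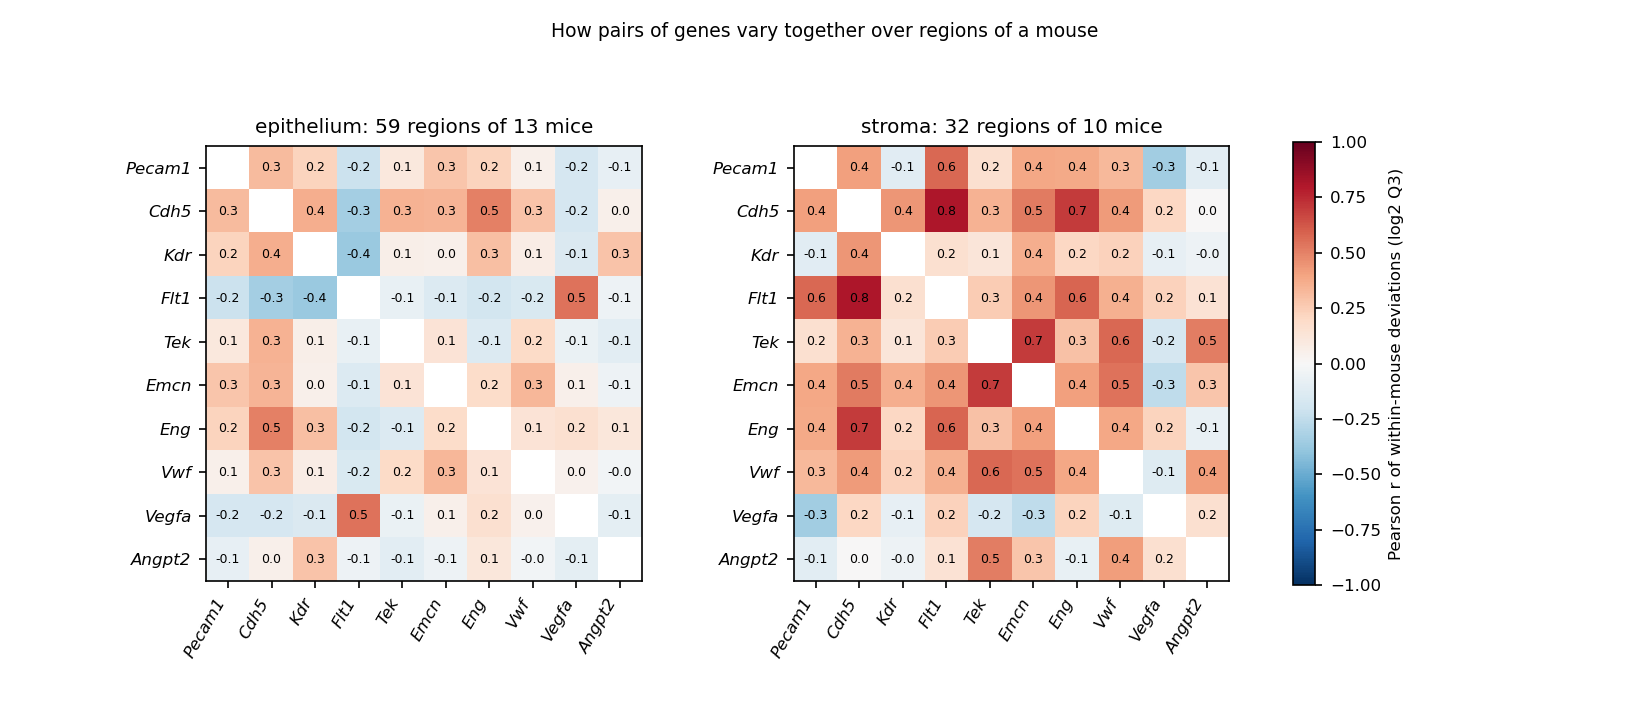
Pearson r between each pair of genes over 59 epithelium regions of 13 mice (left) and 32 stroma regions of 10 mice (right), computed on deviations of log2 Q3 values from the mouse mean, on a colour scale from -1 to 1. The stroma block of 8 endothelial genes is positive in 27 of 28 pairs, and in epithelium the Flt1 row is negative with the other 7 endothelial genes and 0.55 with Vegfa.

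The genes most like the mean of the 8 endothelial genes over stroma regions were Fgd5 (r = 0.83), an endothelial guanine exchange factor, Ehd4 (0.82), Cryzl2 (0.79), Bambi (0.76) and Jag1 (0.75), the Notch ligand. The likeness had a median of 0.45 over the other endothelial genes, 0.34 over fibroblast genes, 0.28 over pericyte genes, -0.57 over macrophage genes and 0.01 over all genes, and it was 0.20 for region depth. In epithelium the closest genes, named after their values were seen, were Igfbp7 (0.73), Afap1l1 (0.72), Egfl7 (0.72), Dab1 (0.72) and Gpx3 (0.71). There the median was 0.32 for the other endothelial genes, 0.38 for pericyte genes, 0.45 for fibroblast genes and -0.54 for columnar epithelium genes, with -0.38 for depth, so that epithelium regions with more endothelial signal also had more fibroblast and less epithelial signal. Its part in the endothelial values of epithelium was not tested.

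The share of the summed squared deviations over regions that lay between mice was 82.6% for Vegfa in stroma, against 71.0% for Kdr, 70.8% for Angpt2, 60.0% for Vwf, 49.1% for Eng and 17.2% to 34.0% for the other 5 genes. Such a share is positive even where mice do not differ, and is larger with fewer regions per mouse. Low shares therefore show no mouse difference, and the compartments cannot be set against each other by it. In epithelium it was 54.2% for Vegfa and 25.4% to 45.6% for the others. Stroma regions of 1 mouse thus had much the same Vegfa value (within-mouse SD 0.27, log2) while mice stood apart. Flt1 had a share of 17.2% in stroma and a within-mouse SD of 0.65. That SD took in the 2 stroma regions of PV5, at 4.51 and 53.2 Q3 units. The former was the lowest Flt1 value of any stroma region, and the SD without PV5 was not computed.

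Vegfa and its receptor Flt1 varied together over epithelium regions, with r = 0.55, while the other receptor Kdr had r = -0.15 with Vegfa. Both values depended on 1 mouse, PV1, which was singled out after its values were seen. Within the 15 epithelium regions of PV1, Vegfa ran from 20.6 to 211 Q3 units (median 64.1) and Flt1 from 1.72 to 62.8 (median 13.6), with r = 0.91. In the 16 epithelium regions of the other PV mice Flt1 ran from 1.80 to 12.0, and in the 29 WT regions from 2.00 to 22.6. The r of Vegfa with Flt1 was 0.11 in the other PV mice, -0.09 in WT mice and -0.03 over all regions without PV1. That of Vegfa with Kdr was -0.56 in PV1 and 0.21 over all regions without PV1. PV1 gave 15 of the 59 regions, more than any other mouse.

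**Figure D4:**
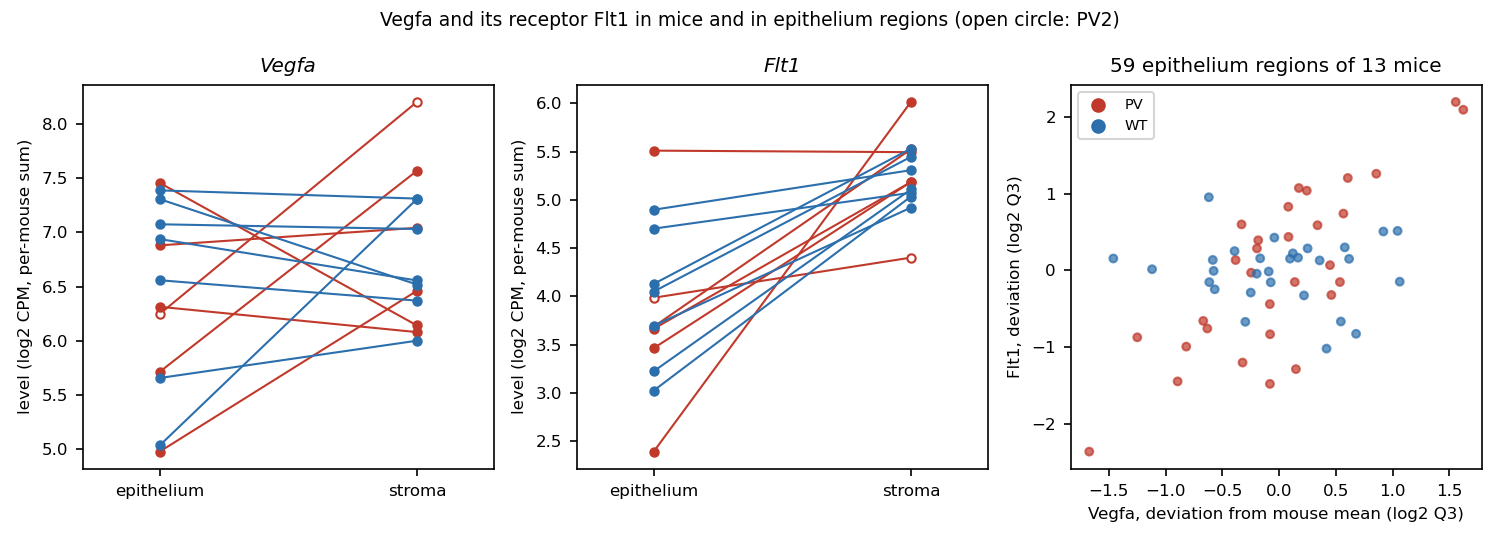
Left and middle, the level of Vegfa and of Flt1 (log2 CPM) in epithelium and stroma, with a line for each of 13 mice (PV red, WT blue, PV2 as open circles). Right, deviation of Flt1 against that of Vegfa from the mouse mean (log2 Q3) in 59 epithelium regions, in which the PV points with the highest values of both genes are regions of PV1, the mouse with r = 0.91.

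The hypoxia response genes were looked at beside them after the values had been seen. In the epithelium of PV1, 11 of the 13 had r over 0.5 with Vegfa, as did 13.7% of all genes, and their median r was 0.76. Among them were Bnip3 (0.90), a mitochondrial protein induced by low oxygen, Egln3 (0.90), Hif1a (0.89), the oxygen-regulated factor itself, Egln1 (0.89) and Adm (0.88). Egln3 ran from 11.3 to 683 Q3 units over those 15 regions (median 331), against 3.61 to 70.3 (median 12.8) in the other PV epithelium regions and 2.58 to 304 (median 10.0) in WT epithelium. Hif1a reached 233 in PV1 and 363 in WT epithelium. Flt1 ranked high even among these, with 24 other genes at or above its r. Kdr (-0.56) and Cdh5 (-0.55) were opposite in sign in PV1, and had 0.21 and 0.19 over the regions without PV1. Without PV1 the median r of the hypoxia genes with Vegfa was -0.02, 0 of 13 were over 0.5, and Hif1a had -0.77. The genes most like Vegfa over all epithelium regions were Iqgap2 (0.77), Adamts9 (0.77), Rrbp1 (0.75), Fam20c (0.75) and Ninj1 (0.75).

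PV and WT mice were compared next, which asks whether the mutant receptor went with a change of vessel genes. In epithelium 0 of the 10 genes and 0% of all 14881 genes were called by edgeR. At an unadjusted p under 0.05 there were 1224 genes (8.23%) and 3 of the 10: Eng, Angpt2 and Emcn, all lower in PV. Eng ran from 4.01 to 4.95 in PV and from 4.34 to 5.19 in WT epithelium, and 5 of the 6 PV mice lay below the median WT mouse, PV2 being the exception on 2 counts. The fitted difference was -0.60 ± 0.17 (adjusted p = 0.373). Angpt2 (-0.58 ± 0.21, adjusted p = 0.537) and Emcn (-0.57 ± 0.22, adjusted p = 0.553) likewise put 5 of the 6 PV mice below the median WT mouse, with ranges that overlapped. For these 3 genes the 95% intervals were -0.93 to -0.27, -0.99 to -0.16 and -1.01 to -0.13. The other 7 genes lay between -0.20 and 0.22. The upper end was Flt1, which turned to -0.66 without PV1, and Vegfa went from -0.16 to -0.53 without that mouse. The median over the 10 was -0.15 against -0.0048 over all genes. None of the 10 genes had PV and WT sums fully apart, which held for 0.134% of genes.

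Markers of neighbouring cells were measured beside these values. Dcn differed by -0.93 ± 0.22 (adjusted p = 0.322), and the median was -0.45 over 10 fibroblast genes, -0.29 over 29 other endothelial genes and 0.32 over 12 columnar epithelium genes, with none called. The summed fibroblast level had a median of 1359 CPM (highest 1895) in PV and of 1514 CPM (highest 2350) in WT epithelium, all 10 genes measured. The summed columnar level was 2508 to 8632 CPM in PV and 3201 to 6656 CPM in WT epithelium, all 12 genes measured. The sum of the 8 endothelial genes was 84.9 to 195 CPM (median 114) in PV and 101 to 160 CPM (median 121) in WT epithelium. The part of stroma signal in the 3 differences was not tested.

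In stroma 0 of the 10 genes and 0% of all genes were called. At an unadjusted p under 0.05 there were 523 genes (3.51%) and 2 of the 10, Vwf and Kdr, both higher in PV. Vwf ran from 5.20 to 6.93 in PV and from 4.19 to 5.53 in WT stroma, and all 6 PV mice were above the WT median (0.82 ± 0.28, adjusted p = 1.00). Kdr ran from 5.13 to 7.35 and from 5.21 to 5.50, where 5 of the 6 PV mice exceeded the median WT mouse and PV3 lay below all WT mice (0.80 ± 0.27, adjusted p = 1.00). PV5, one of the youngest mice, had the highest level of both. Without PV5 the differences were 0.52 for Vwf and 0.42 for Kdr. With age in the fit Kdr differed by 0.46 and Vwf by 0.90, and among mice aged 4.0 to 6.3 months by 0.28 and 0.64. Pecam1 was above the WT median in 6 of 6 PV mice (0.32 ± 0.19, adjusted p = 1.00). The other 7 genes lay between -0.03 and 0.33, and the median over the 10 was 0.23 against 0.01 over all genes. Sums of PV and WT stroma were fully apart for 0.0538% of genes and for none of the 10.

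Smooth muscle genes were measured beside these values in stroma. Their median was 0.76 over 7 genes, with a range of -0.44 to 1.03, and 1.03 ± 0.43 for Acta2 (adjusted p = 1.00), none called. Their summed level was 541 to 1750 CPM in PV and 427 to 1321 CPM in WT stroma. Genes of the pericyte list had a median of 0.19 over 9, led by Mcam (0.60 ± 0.22), which is not particular to pericytes, and fibroblast genes one of 0.05. The 8 endothelial genes summed to 453 to 926 CPM (median 505) in PV and 375 to 541 CPM (median 467) in WT stroma. The part of muscle or vessel wall in the regions was not tested.

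**Figure D5:**
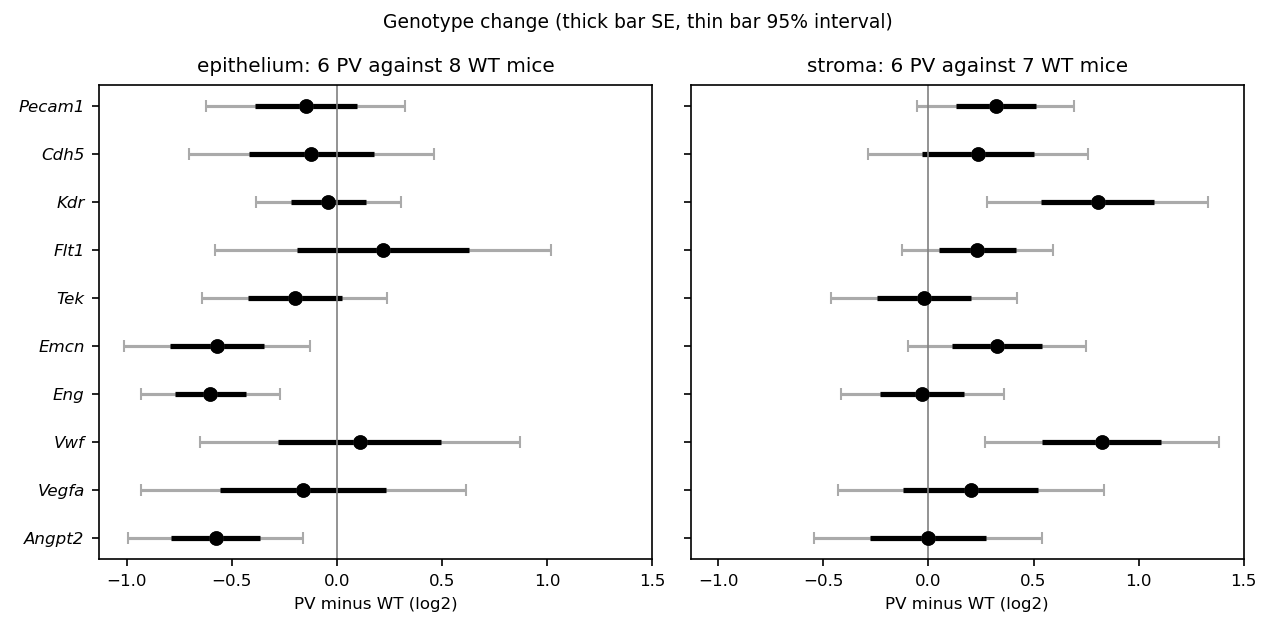
PV minus WT (log2, x axis) for each gene in epithelium (6 PV, 8 WT mice) and in stroma (6 PV, 7 WT mice), with the fitted value, its SE (thick bar) and its 95% interval (thin bar). In epithelium Eng, Emcn and Angpt2 lie at -0.60 to -0.57 with intervals below 0, in stroma Kdr and Vwf lie near 0.80 with intervals above 0, and none passed adjustment over all genes.

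Whether the genotype difference itself differed between stroma and epithelium was tested by an interaction term in the paired fit. It called 0 of the 10 genes and 0% of all genes by edgeR, and 1064 genes (7.15%) had an unadjusted p under 0.05. Among the 10 these were Emcn (0.82 ± 0.27, adjusted p = 0.581), Kdr (0.66 ± 0.29, adjusted p = 0.670), Eng (0.60 ± 0.19, adjusted p = 0.581) and Vwf (0.54 ± 0.23, adjusted p = 0.669). A value above 0 is a larger fitted step from epithelium to stroma in PV mice. The 10 values ran from 0.17 to 0.82 with a median of 0.44, against 0.0043 over all genes, and for the 6 genes not named the 95% interval held 0. The fibroblast genes had a median of 0.58 and Col1a1, the type I collagen gene, 0.85 ± 0.25 (adjusted p = 0.581). The stroma minus epithelium difference of Emcn was 1.96 to 3.49 in PV mice and 0.92 to 2.34 in WT mice. That of Eng had a median of 2.77 in PV mice (1.41 to 3.13) and of 2.20 in WT mice (lowest 1.87). Both overlapped between the genotypes. With regions of both plates summed, 9 of the 10 values changed sign.

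Age was fitted as a slope per month with genotype in the model. In epithelium 9 genes (0.0605%; 0.0336% higher with age) were called by edgeR and none of the 10. At an unadjusted p under 0.05 there were 14.2% of all genes and 2 of the 10, Cdh5 at -0.20 ± 0.08 per month (adjusted p = 0.291) and Eng at -0.11 ± 0.05 (adjusted p = 0.339). In stroma 26 genes (0.175%; 0.134% higher with age) were called and again none of the 10, while 14.3% of all genes and 3 of the 10 had an unadjusted p under 0.05. Vegfa had the lowest p, at -0.26 ± 0.08 per month (adjusted p = 0.175), followed by Kdr (-0.17 ± 0.07) and Cdh5 (-0.17 ± 0.07, both adjusted p = 0.308). The highest stroma level of Vegfa, 8.21, belonged to PV2, aged 2.4 months, on 29 counts. DESeq2, which called 412 of 14881 genes for age in stroma, called Vegfa (-0.26 per month, adjusted p = 0.0452), and edgeR did not. PV mice were younger at the median, so age and genotype were partly confounded. Of 9 macrophage genes, Cd68 was called in stroma (0.37 ± 0.07 per month, adjusted p = 0.0395), and the median of the 9 was 0.40 per month.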

How the data were processed

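The labels and methods give UMI-deduplicated counts per probe, made with the GeoMx NGS pipeline and collapsed to targets by GeomxTools. The deposited expected counts hold 19962 targets with 0 replaced by 1 by the authors, and the deposited signal values are those counts divided by each region's third-quartile (Q3) factor by the authors. The other per-region files were deposited as probe counts with true zeros and were used as an alternative. The submitters' processing notes name R 4.1.2, Space Ranger and mm10. Probe sequences were not used here. The labels name 14 animals (6 PV, 8 WT), which were used, while the design text gives 13 (6 and 7), and nothing says whether they were littermates.

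The replicate was the mouse: rounded counts of the 95 first-plate regions were summed by animal and tissue compartment. The fits kept the 14881 genes that the authors' own filter had left. The tests were two-sided quasi-likelihood tests of edgeR 4.0.16 (TMM, R 4.3.3) with Benjamini-Hochberg adjustment at 0.05, and levels are given as log2 CPM, to which edgeR added a prior count of 2. Each SE is the one that the p-value implies, and 95% intervals are normal intervals from it. Alternatives used DESeq2 1.42.0, limma 3.58.1 and edgeR's likelihood ratio test over regions. Epithelium and stroma of a mouse deviated together (r 0.16 to 0.53, 13 of 13 mice over 0.1), so the mouse was a block. The negative-probe row held 5.08e-04% of the counts and was dropped. No-template controls held at most 1 count, and 8.97 aligned reads stood behind a count. On simulated data with 14881 genes, edgeR recovered 97.5% of log2 changes of 1 between compartments, 62.5% between genotypes in epithelium and 41.0% in stroma.

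The genes, lists and tests were chosen with earlier results of these data known. Named were the 10 genes, at most 3 called genes per list and direction with the lowest p (or the gene with the lowest p where none was called), and the 5 genes most like them over regions. Names given outside this rule are said to be chosen after their values were seen.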

Additional observations from a re-analysis of the deposited data

Results flagged for a closer look

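In 60 groups of 6 to 8 mice, 5 had a highest or lowest mouse far from the others, where chance alone flags about 5% of groups. PV2 gave 3 of the 5. Its stroma minus epithelium difference was 0.91 for Cdh5, against 2.27 to 2.93 in the other PV mice, and 1.41 for Eng, against 2.52 to 3.13. Its Eng level in epithelium was 4.95 log2 CPM, against 4.01 to 4.32 in the other PV mice. These sums rest on 1 region of 61691 counts in epithelium and 1 of 85336 in stroma. WT1 had an Emcn level of 4.68 log2 CPM in epithelium, against 3.27 to 3.91 in the other WT mice. WT5 had a stroma minus epithelium difference of 2.28 for Vegfa, against -0.79 to 0.34 in the other WT mice.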

How the results depend on the processing

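The count of 9 genes called between stroma and epithelium stayed at 9 when each mouse was left out, and it was 9 to 10 over 12 other alternatives. The 10th was Vegfa under limma on per-mouse Q3 means. Genes called overall fell to 5631 when both plates were summed. Without the replicate block, which pairs a mouse's compartments, 9 members and 7931 genes were called, and 0 members for genotype by compartment. No paired analysis was possible because PV and WT are different mice, for genotype and for age. Upper-quartile scaling moved the median of all genes between compartments from 0.05 to 0.18. Taking regions as independent called 3 members for genotype in epithelium, with 3585 genes called, against 28 genes and none of the 10 by DESeq2. The 3 were Eng (-0.68, adjusted p = 3.59e-04), Angpt2 (-0.57, adjusted p = 0.00304) and Emcn (-0.50, adjusted p = 0.0111). At an unadjusted p under 0.05, however, 0 of the 10 passed under limma on per-mouse Q3 means. It was also 0 when limma was fitted to single regions and mice entered as random effects, and 1 with both plates summed. Leaving out 1 mouse gave 2 to 3, and each remaining alternative gave 3. In stroma DESeq2 called 2 genes for genotype and 1 for genotype by compartment. For age, regions taken as independent called 1 member and 2525 of 14881 genes in epithelium (Cdh5, adjusted p = 0.00714) and 1 member and 1429 genes in stroma (Vegfa, -0.23, adjusted p = 0.00827), and DESeq2 called 1 member and 412 genes in stroma (Vegfa). Over all alternatives and genes, the sign turned in 1 of 250 values between compartments, 23 of 270 for genotype in epithelium, 37 of 260 in stroma, 17 of 250 for genotype by compartment, and 11 of 250 and 9 of 240 for age in epithelium and stroma. Of the 37, 22 arose under alternatives other than leaving out 1 mouse, and Angpt2 turned in 12 of 26 alternatives. Distinct alternatives were fewer than counted. In epithelium, keeping mice with at least 2 regions was the same fit as leaving out PV2. In the paired fits edgeR's own expression filter kept all 19962 targets, as did the fit with no filter. The values whose sign turned included Vegfa between compartments with regions as independent (-0.048), Flt1 for genotype in epithelium without PV1 and, with both plates, Emcn (0.20) and Eng (0.094) for genotype in epithelium, Pecam1 (-0.12) in stroma, and Emcn (-0.44), Eng (-0.47), Kdr (-0.23) and Vwf (-0.40) for genotype by compartment. Many second-plate regions lie on the side of the other label. Leaving out 1 mouse kept members called at 0 for genotype, genotype by compartment and age, while genes called ran from 0 to 6 for genotype in epithelium, 0 to 1 in stroma, 1 to 206 for age in epithelium and 0 to 184 in stroma. Over other alternatives they ran from 0 to 3585, 0 to 565, 0 to 2525 and 0 to 1429, and for genotype by compartment from 0 to 142. The causes were not tested. Low counts limit some values: the median sum held 11 counts of Pecam1 in PV epithelium and 11 of Angpt2 in PV stroma.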

Other observations

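Among genes outside the 10 that the pathway lists named by lowest p, none was called for genotype. Cxcl12, a chemokine that guides endothelial cells, differed by -1.10 ± 0.23 (log2) between PV and WT epithelium (edgeR adjusted p = 0.139), and Sema3a, a repulsive semaphorin, by 1.06 ± 0.27 (adjusted p = 0.366). Cxcl10, a chemokine that inhibits vessel growth, differed by 3.24 ± 0.76 in stroma (adjusted p = 0.616). Pgf, placental growth factor and a ligand of Flt1, had the lowest p of the VEGF family for genotype by compartment (0.97 ± 0.23, adjusted p = 0.581). For age in stroma Vegfd, a lymphatic growth factor, had 0.44 ± 0.10 per month (adjusted p = 0.0664), and for age in epithelium Id3, a target of BMP signalling, had -0.60 ± 0.14 per month (adjusted p = 0.0953).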
